A study of Homo sapiens with 7 samples.

Results

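The genes described here are 9 of the 18817 gene symbols in the tables: HMOX1, NQO1, TXNRD1, SRXN1 and OSGIN1, all known targets of the transcription factor NRF2, the ferritin chain genes FTL and FTH1, and ME1 and PGD, whose enzymes make NADPH. They were chosen by symbol, with earlier results of these data known, so shares over all genes are given as description. The RNA came from the established human neuroglioma line H4, here carrying opto-PKR, a fusion of the light-clustering protein Cry2Olig to the stress kinase PKR. By phosphorylating the translation factor eIF2, PKR sets off the integrated stress response, which the study followed over time. Cells in glass-bottom plates received continuous blue light for 0, 60, 120, 240, 480, 600 or 720 min, all with the fusion, and 1 library was made at each time. The groups are therefore the 7 times, with no replicates, and the cells at 0 min carry opto-PKR too. The sources used here do not give the promoter of the fusion or whether the line is a clone. Unlit cells kept for the later times were not analysed here, so light and time in the plate cannot be told apart.

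NRF2, the product of NFE2L2, is held at low levels by KEAP1, which presents it for degradation. Oxidants and electrophiles modify KEAP1, NRF2 then builds up, pairs with a small MAF protein and binds antioxidant response elements, where the repressor BACH1 competes with it. Its targets detoxify quinones, reduce peroxides through thioredoxin and sulfiredoxin, break down haem, store the released iron in ferritin and supply the NADPH that the reductases consume. HMOX1 has also been described as a target of ATF4, the transcription factor of the integrated stress response.

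The library method counts 3' ends with unique molecular identifiers (UMIs), and the values used are the deposited transcript counts, which are UMI counts corrected for collisions among 4096 possible UMIs. The 6 complete tables held between 7.05e+06 and 8.91e+06 transcripts. The table of the 480 min library ends at NME1-NME2 in alphabetical order, so NQO1, OSGIN1, PGD, SRXN1 and TXNRD1 have no value there and rest on 6 libraries, while HMOX1, FTL, FTH1 and ME1 rest on 7. Of the markers of neuroglial cells, VIM stood at 682 to 886 CPM and CD44 at 495 to 703 CPM, SOX9 at 44.4 to 96.4 CPM, SOX2 at 15.9 to 54.5 CPM and NES at no more than 14 transcripts. GFAP, S100B and FABP7 have no row in the tables used. Among markers of other cells PTPRC, PECAM1, ALB, EPCAM, CDH1 and RBFOX3 had at most 7 transcripts in any library, while TUBB3 reached 2766 and COL1A1 reached 1069.

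All 9 genes were at their lowest in the 240 min library. At that time 9 of 9 stood below their 0 min level, with a median log2 ratio of -0.44, against 0.02 over all 11568 genes compared. In the 720 min library 8 of 9 stood above 0 min, with a median of 0.41 (-0.01 over all genes), and 6 of the 9 had their highest level there. Being lowest at 240 min was seen in 17.1% of all genes measured in 7 libraries and in 20.1% of those measured in 6, and being highest at 720 min in 19.5% and 19.8%. Because the RNA is from whole cultures, fewer cells of a kind and less RNA per cell cannot be told apart.

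**Figure D1:**
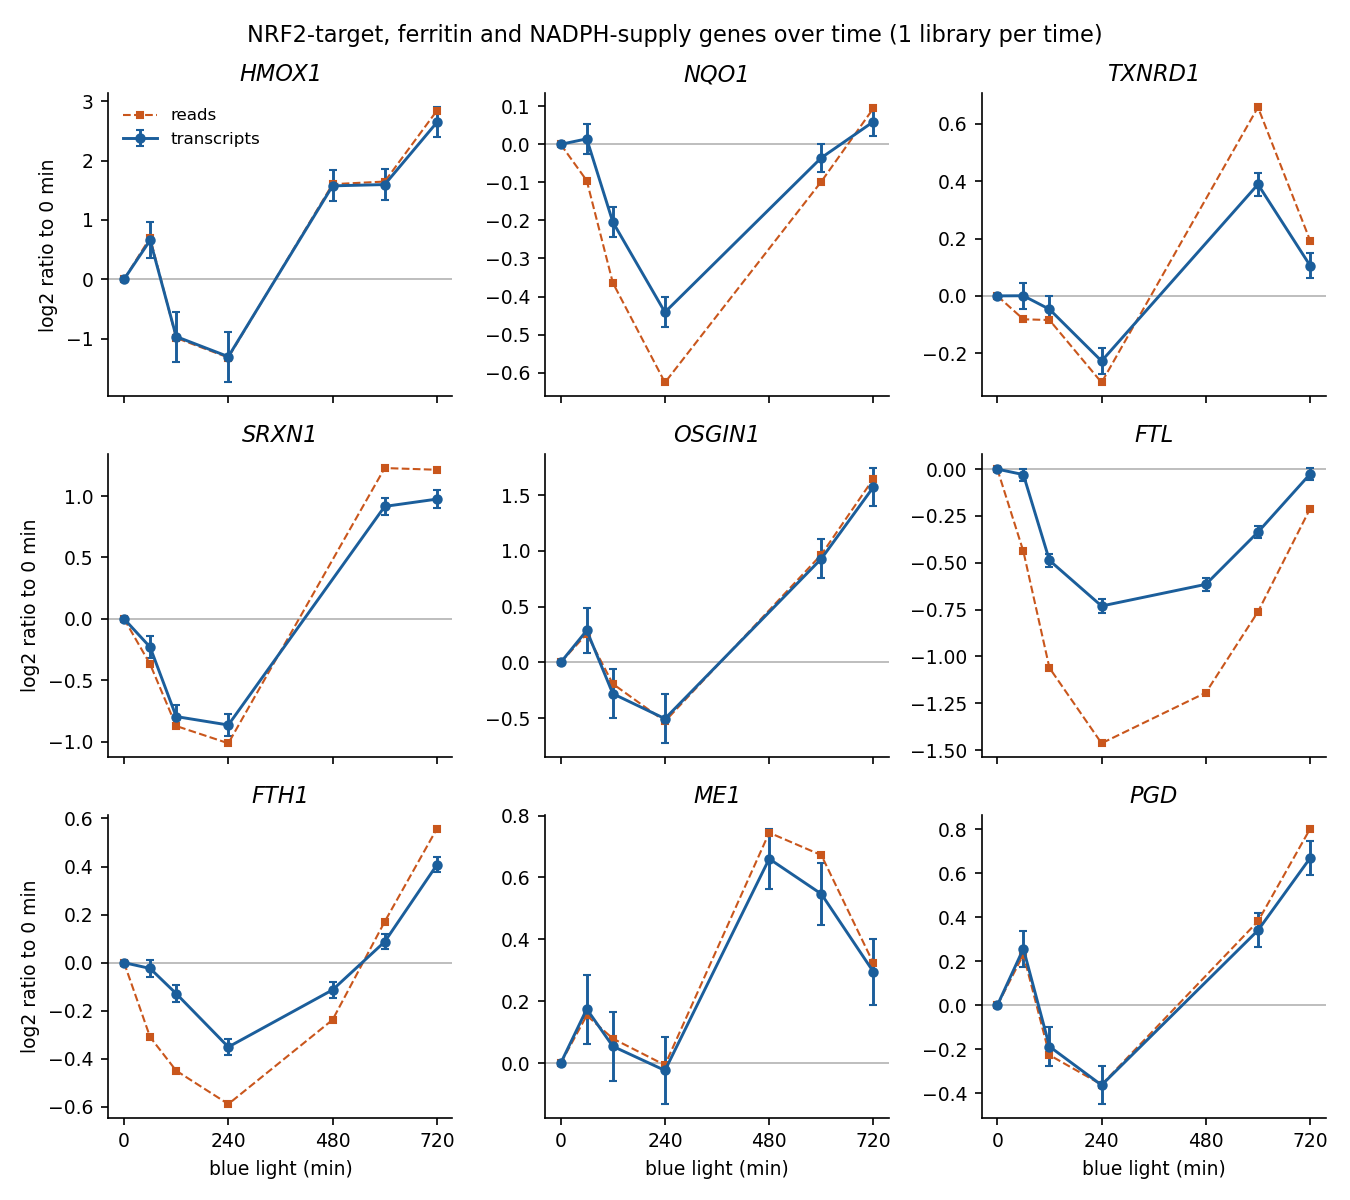
Log2 ratio to the 0 min library (y axis, a separate scale in each panel) against minutes of blue light (x axis) for each of the 9 genes, by deposited transcripts (circles, solid line, with exact binomial 95% intervals for counting error) and by reads (squares, dashed line). Every gene is lowest at 240 min. NQO1, TXNRD1, SRXN1, OSGIN1 and PGD have no point at 480 min, and their line joins 240 and 600 min.

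Each gene was tested over time with edgeR (quasi-likelihood F test on the transcript counts, Benjamini-Hochberg adjustment over 13566 genes, threshold 0.05). The trend is the fitted log2 change over 720 min. The bend compares the fitted level at 360 min with the average of the fitted end points at 0 and 720 min (mid-course minus ends, log2), so a negative bend is a level that is lower in mid-course than at the ends. All 9 genes passed the filter on low counts, with at least 67 transcripts in every library that lists them. Of the 9, 2 rose over the course, HMOX1 and OSGIN1, against 3.9% of all genes, and 0 fell, against 2.96% of all genes (0 with DESeq2 and 0 at an unadjusted p under 0.05). At an unadjusted p under 0.05 the trend of 5 passed, all upward, a level that 23.1% of all genes reached in either direction. A downward bend was called for 5 of the 9, NQO1, OSGIN1, FTL, FTH1 and PGD, against 13.7% of all genes. An upward bend was called for 0, against 17.5% of all genes (edgeR; 0 with DESeq2 and 0 at an unadjusted p under 0.05). At an unadjusted p under 0.05 the bend of 6 passed, all downward, a level that 43.4% of all genes reached in either direction. With 1 library per time, the p-values measure departure from the fitted shape together with noise between libraries, which may be technical.

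**Figure D2:**
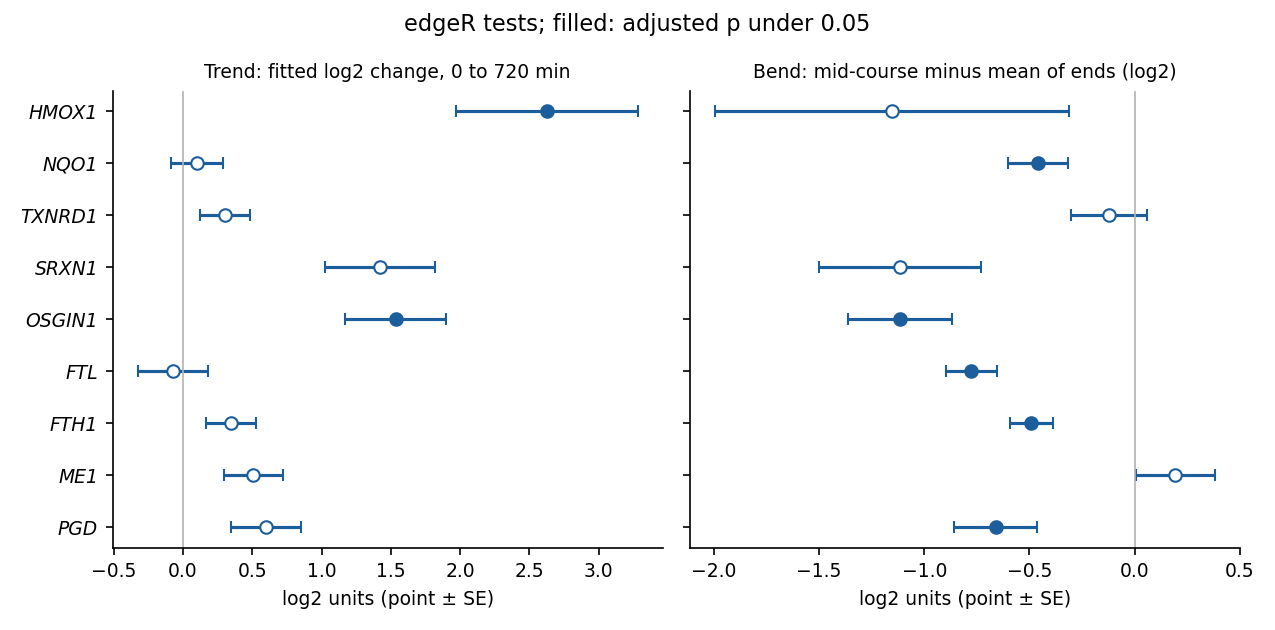
Fitted trend (left) and bend (right) of each gene, in log2 units, with standard errors. Filled points have an edgeR adjusted p under 0.05: HMOX1 and OSGIN1 for the trend, and NQO1, OSGIN1, FTL, FTH1 and PGD for the bend.

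HMOX1, on chromosome 22, encodes haem oxygenase, which opens the haem ring and frees its iron. It had 155, 206, 73 and 67 transcripts at 0, 60, 120 and 240 min, and 538, 481 and 863 transcripts at 480, 600 and 720 min. In counts scaled to library size these are 18.2, 28.8, 9.34, 7.39, 54.3, 55.2 and 114 CPM. The level was thus above 0 min in the first hour, below it at 120 and 240 min, and above it from 480 min on. The ratio was 0.405 for 240 over 0 min (exact binomial 95% interval 0.299 to 0.543, counting error only), 6.25 (5.26 to 7.46) for 720 over 0 min and 15.4 (12.0 to 20.1) for 720 over 240 min. In the fit HMOX1 rose by 2.62 ± 0.66 log2 units (SE; adjusted p = 0.0457 with edgeR). That call is close to the threshold and was lost without the library at 60, 120, 480, 600 or 720 min, where the fitted change was 2.14 to 3.15 and the adjusted p 0.064 to 0.238. With time entered as the log of minutes plus 60, or as ranks, it was not called either (adjusted p = 0.143 and 0.105), nor with no filter on low counts (0.0945) or with a filter of 50 counts in 3 libraries (0.0502). Its bend of -1.15 ± 0.84 was not called (edgeR adjusted p = 0.354).

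OSGIN1, on chromosome 16, encodes an oxidative-stress-induced growth inhibitor. Its levels were 47.1, 57.4, 38.8 and 33.2 CPM at 0, 60, 120 and 240 min, and 89.7 and 140 CPM at 600 and 720 min. As for HMOX1, the 60 min library was above 0 min and the 240 min library the lowest. The ratio was 0.705 (0.605 to 0.821) for 240 over 0 min and 2.98 (2.65 to 3.35) for 720 over 0 min. OSGIN1 passed both tests, rising by 1.53 ± 0.36 (edgeR adjusted p = 0.0439) and bending by -1.11 ± 0.25 (edgeR adjusted p = 0.00574). The trend was lost without 60, 120, 480, 600 or 720 min (1.06 to 1.74, adjusted p 0.0559 to 0.305) and on the log and rank time scales (adjusted p = 0.16 and 0.109), and the bend without 240 min (-0.75, adjusted p = 0.164).

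SRXN1, on chromosome 20, encodes sulfiredoxin, which reactivates over-oxidized peroxiredoxins. Its levels were 299, 255, 172 and 164 CPM at 0, 60, 120 and 240 min, and 563 and 587 CPM at 600 and 720 min. The ratio was 0.549 (0.515 to 0.586) for 240 over 0 min, 1.97 (1.87 to 2.06) for 720 over 0 min and 3.58 (3.37 to 3.80) for 720 over 240 min. Unlike HMOX1 it was below 0 min already at 60 min. The course passed neither test with edgeR, with a trend of 1.42 ± 0.40 (adjusted p = 0.0745) and a bend of -1.11 ± 0.38 (adjusted p = 0.0672). The trend was called with DESeq2 (adjusted p = 0.0196) and without the 0 or 240 min library (adjusted p = 0.0164 and 0.0214), and the bend without 600 or 720 min (-1.42 and -1.94, adjusted p = 0.000283 and 0.0001), on the log and rank time scales (adjusted p = 0.00466 and 0.0373) and with UMI counts (adjusted p = 0.0257).

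NQO1 and TXNRD1 were abundant and moved less. NQO1, on chromosome 16, encodes the quinone reductase that uses NADPH to reduce quinones. It stood at 1378, 1392, 1196 and 1015 CPM at 0, 60, 120 and 240 min, and at 1345 and 1436 CPM at 600 and 720 min. The level was lower at 120 and 240 min and back near the 0 min level at 600 and 720 min. The ratio was 0.737 (0.717 to 0.757) for 240 over 0 min and 1.04 (1.02 to 1.07) for 720 over 0 min. An interval that allows for UMI collisions was 0.694 to 0.781 for 240 over 0 min. For 720 over 0 min it was 0.981 to 1.11, which holds 1. The bend of NQO1 was -0.46 ± 0.14 (edgeR adjusted p = 0.0278). That bend was lost without 0, 120 or 240 min (-0.53, -0.44 and -0.22, adjusted p = 0.0813, 0.0671 and 0.476), with UMI counts (-0.22, adjusted p = 0.215) and with log time (-0.29, adjusted p = 0.121). TXNRD1, on chromosome 12, encodes the cytosolic thioredoxin reductase. It stood at 993, 994, 962 and 849 CPM at 0, 60, 120 and 240 min, and at 1301 and 1069 CPM at 600 and 720 min. Its single high library was that of 600 min, at 1.31 (1.27 to 1.35, or 1.24 to 1.39 allowing for UMI collisions) times 0 min. TXNRD1 passed neither test, with a trend of 0.31 ± 0.18 (edgeR adjusted p = 0.359) and a bend of -0.12 ± 0.18 (edgeR adjusted p = 0.63), although its bend was called without 720 min (-0.53, adjusted p = 0.0436).

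The ferritin genes encode the chains of the shell that stores iron: FTH1, on chromosome 11, the heavy chain that oxidizes iron, and FTL, on chromosome 19, the light chain. In both mRNAs an iron-responsive element near the 5' end is bound by the iron regulatory proteins, which block translation when iron is scarce. The elements are shown because they are the part the messages share. They are 30 bases each, from GENCODE 29 transcripts, with the loop in capitals, and 27 of the 30 bases are identical. Counts of RNA carry no measure of that translational control.
FTH1, transcript bases 57 to 86: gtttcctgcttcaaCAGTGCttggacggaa
FTL, transcript bases 33 to 62: gtctcttgcttcaaCAGTGTttggacggaa

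FTH1 stood at 1778, 1749, 1627, 1394, 1644, 1889 and 2357 CPM at 0, 60, 120, 240, 480, 600 and 720 min. FTL stood at 1998, 1958, 1425, 1204, 1305, 1583 and 1962 CPM at the same times. Both were lowest at 240 min. In transcripts FTL was back near its 0 min level at 720 min, while FTH1 was above its own. The ratio of 720 over 0 min was 1.33 (1.30 to 1.35) for FTH1 and 0.982 (0.961 to 1.00) for FTL. In reads that ratio was 1.47 (1.46 to 1.49) for FTH1 and 0.864 (0.854 to 0.873) for FTL, so by reads FTL was still below 0 min. The bend was -0.49 ± 0.10 for FTH1 (edgeR adjusted p = 0.00473) and -0.78 ± 0.12 for FTL (edgeR adjusted p = 0.00131). Both bends were called whichever 1 library was left out and with reads, but neither with log time (edgeR adjusted p = 0.052 for FTH1 and 0.0526 for FTL). With UMI counts the FTH1 bend was -0.28 and not called (edgeR adjusted p = 0.0755), and that of FTL was -0.33 (edgeR adjusted p = 0.0467).

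Both genes came close to using every UMI. FTH1 used 95.3% to 98.7% of the 4096 UMIs and FTL 93.0% to 98.4%, where a few UMIs more or less move the corrected count widely. Across all genes the median number of reads per deposited transcript was 1.20 to 1.28 for genes with 10 to 100 UMIs and 3.24 to 3.77 for genes with 3800 or more. FTL had 73885 reads at 0 min, 29788 at 240 min and 56764 at 720 min. In reads the ratio of 240 over 0 min was 0.363 for FTL (0.603 in transcripts) and 0.665 for FTH1 (0.784 in transcripts). The bend in reads was -1.40 for FTL (edgeR adjusted p = 0.0006) and -0.77 for FTH1 (edgeR adjusted p = 0.00532). NQO1, with 89.4% to 94.3% of the UMIs used, and TXNRD1, with 82.4% to 93.7%, showed the same direction of difference, with ratios of 240 over 0 min of 0.648 and 0.811 in reads. Reads include copies made by amplification, so both values are given side by side. An interval that allows for UMI collisions is wider, at 0.561 to 0.647 for FTL and 0.732 to 0.840 for FTH1, 240 over 0 min. For 720 over 0 min it was 0.909 to 1.06 for FTL and 1.22 to 1.44 for FTH1.

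The balance of the chains moved over the course. FTH1 over FTL was 0.958, 1.05, 1.46, 1.76, 1.86, 1.83 and 1.63 in reads at 0, 60, 120, 240, 480, 600 and 720 min, and 0.890, 0.893, 1.14, 1.16, 1.26, 1.19 and 1.20 in transcripts. From 120 min on every library was above those of 0 and 60 min, on either count. The ratio is a description of these 7 libraries and was not tested. FTH1 has a near-identical copy, FTH1P3 on chromosome 2, which was listed with reads equal to 5.80% to 6.94% of those of FTH1. FTH1P3 followed the same course, at 343, 224 and 496 CPM at 0, 240 and 720 min, and with its reads added the ratio was 1.86 at 240 min, against 1.02 at 0 min. The sources used here do not say how the authors divided reads between such copies, so ferritin levels are uncertain.

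**Figure D3:**
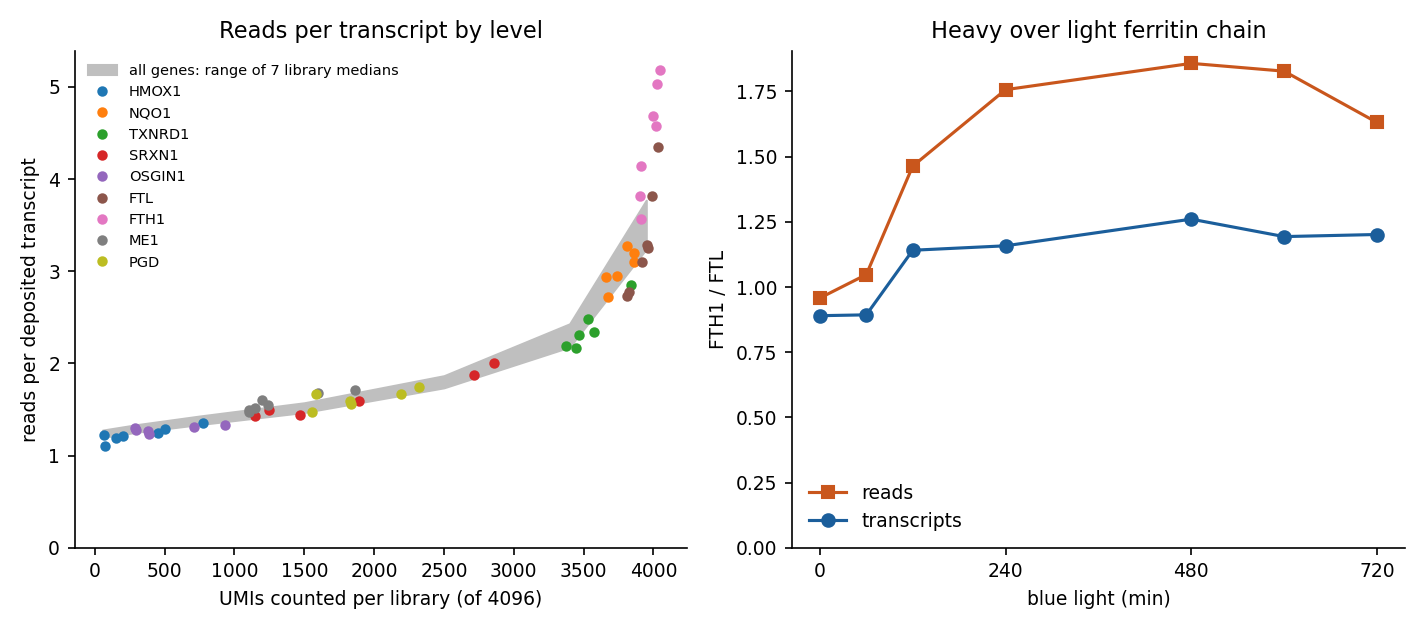
Left, reads per deposited transcript (y axis) against UMIs counted (x axis, of 4096 possible) for each gene in each library, with the range of the library medians over all genes in grey. Right, FTH1 over FTL in each library by reads (squares) and transcripts (circles) against minutes of light. Reads per transcript climb steeply near 4096 UMIs, where FTH1 and FTL lie, and the chain ratio is higher from 120 min on than at 0 and 60 min.

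ME1 and PGD supply NADPH in the cytosol. PGD, on chromosome 1, encodes the phosphogluconate dehydrogenase of the pentose phosphate pathway. It stood at 285, 340, 250 and 221 CPM at 0, 60, 120 and 240 min, and at 360 and 452 CPM at 600 and 720 min. Like HMOX1 and OSGIN1 it was above 0 min at 60 min, below at 120 and 240 min and highest at 720 min. The ratio was 0.778 (0.733 to 0.826) for 240 over 0 min and 1.59 (1.51 to 1.67) for 720 over 0 min, and its bend was -0.66 ± 0.20 (edgeR adjusted p = 0.0225), lost without 120 or 240 min (-0.62 and -0.40, adjusted p = 0.0582 and 0.359) and on the log time scale (-0.48, adjusted p = 0.0884). ME1, on chromosome 6, encodes the cytosolic malic enzyme. It stood at 159, 179, 165, 156, 251, 232 and 195 CPM at 0, 60, 120, 240, 480, 600 and 720 min. Its 240 min level was 0.984 (0.913 to 1.06) times 0 min, an interval that holds 1. Of the 4 genes with a value at 480 min, only ME1 had its own highest level there, at 1.58 (1.48 to 1.69) times 0 min. ME1 passed neither test (trend 0.51 ± 0.21, edgeR adjusted p = 0.194, and bend 0.19 ± 0.19, edgeR adjusted p = 0.45).

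Counted at a 1.5-fold change, 3 of the 9 genes were lower at 240 than at 0 min, HMOX1, SRXN1 and FTL, against 18.3% of all genes compared. In reads NQO1 and FTH1 passed as well, making 5, against 19.6% of all genes. At 720 min 4 were higher than at 0 min, HMOX1, SRXN1, OSGIN1 and PGD (12.9% of all genes), and 6 were higher at 720 than at 240 min, those 4 with FTL and FTH1 (16.7% of all genes). After 60 min HMOX1 alone had moved 1.5-fold, upward, at 1.58 (1.27 to 1.96) times 0 min (8.12% of all genes were higher by that much and 4.52% lower). At 120 min HMOX1 and SRXN1 were lower (2 of 9, against 12.7% of all genes). At 480 min, of 4 genes with a value, HMOX1 and ME1 were higher (20.8% of all genes) and FTL lower (17.3%). At 600 min HMOX1, SRXN1 and OSGIN1 were higher (3 of 9, against 15.3%). In reads FTL also passed at 120 min (0.479, lower) and NQO1 for 720 over 240 min (1.65). At 600 min TXNRD1, ME1 and FTL also passed in reads (1.58, 1.59 and 0.590). Shares of all genes in reads for these comparisons are not given here. Each such ratio rests on 2 libraries, without a replicate check.

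Over the 6 complete libraries each of the 36 pairs among the 9 genes had a positive Pearson correlation of log2 CPM, with a median of 0.781. The share of positive pairs among other genes is not given here, so this count has no background to be read against. The closest pair was HMOX1 and OSGIN1, at 0.990, and the loosest FTL and ME1, at 0.228. The 5 other genes most like the mean of the 9 over these 6 libraries were PPAN-P2RY11 (r = 0.993), ZFAND2B (0.983), ATG4B (0.983), B2M (0.980) and ZNF286A (0.980), among 8106 genes compared. Most like HMOX1 alone were B2M (0.997), PPAN-P2RY11 (0.995), RPL7L1 (0.991), UGDH (0.989) and ATG4B (0.986). Likeness of shape is not likeness of size: B2M stood at 1040, 979 and 1166 CPM at 0, 240 and 720 min, and RPL7L1 at 65.3, 42.5 and 155 CPM. With 6 points and 8106 genes, correlations of this height describe the libraries they share and carry no test.

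The genes' promoters were searched for the core of the antioxidant response element, TGACNNNGC, on both strands. RefSeq sequences (GRCh38.p14, 250 bases before to 50 after each start) were found for 7 of the 9 genes, with 8 starts, TXNRD1 having 2. HMOX1 and FTH1 were not searched. The core occurred at 4 of these 8 starts, in TXNRD1, ME1 and PGD, and in 13.3% of all 35116 promoters. The stretches before the start are shown with the match in capitals, read along the gene's strand, because they are where the searched letters occur in the genes described. TXNRD1 has a further match 8 bases before its upstream start and ME1 another past its start.
ME1, chr6:83431155-83431213, minus strand, match 137 bases before the start: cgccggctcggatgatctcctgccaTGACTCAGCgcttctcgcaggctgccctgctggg
TXNRD1, chr12:104215655-104215713, plus strand, match 99 bases before the upstream start: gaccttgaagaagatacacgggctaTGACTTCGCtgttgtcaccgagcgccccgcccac
TXNRD1, chr12:104286905-104286963, plus strand, match on the opposite strand 102 bases before the downstream start: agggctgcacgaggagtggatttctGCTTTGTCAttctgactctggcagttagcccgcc
PGD, chr1:10398838-10398896, plus strand, match on the opposite strand 201 bases before the start: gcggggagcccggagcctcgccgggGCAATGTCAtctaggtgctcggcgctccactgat
The sequence TGATGNAA, a core of the composite C/EBP-ATF element, was in 0 of the 8 windows and in 3.62% of all promoters, and says nothing of HMOX1. A match is a run of letters and no evidence of binding, and elements outside the window were not searched.

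The genes of NRF2 and its repressor BACH1 were highest at 240 min, while that of KEAP1 bent downward. Of 12 regulators tested 1 rose over the course, against 3.9% of all genes, and 0 fell, against 2.96% (edgeR; 0 at an unadjusted p under 0.05 and 0 with DESeq2). An upward bend was called for 4, against 17.5% of all genes, and a downward bend for 3, against 13.7%. NFE2L2 itself stood at 149, 184, 234, 328, 242, 171 and 129 CPM at 0, 60, 120, 240, 480, 600 and 720 min, and so was highest where the 9 genes were lowest. Its bend was 1.15 ± 0.16 (edgeR adjusted p = 0.000839). BACH1, the repressor that competes for NRF2's sites, ran the same way, at 34.1, 71.8, 98.8, 121, 90.8, 51.7 and 44.1 CPM (bend 1.53 ± 0.31, edgeR adjusted p = 0.0065, lost without 240 min at an adjusted p of 0.0753). MAFF, a small MAF gene, and NFE2L3 also bent upward (2.16 and 0.58, edgeR adjusted p = 0.0324 and 0.0298). MAFG, another small MAF gene, rose by 1.02 ± 0.20 (edgeR adjusted p = 0.02), to 256 CPM at 720 min, against 126 CPM at 0 min, a call lost without 120, 600 or 720 min and on the log and rank time scales (adjusted p 0.053 to 0.109). KEAP1, RBX1 and the autophagy receptor gene SQSTM1 bent downward (-0.64, -0.59 and -0.57, edgeR adjusted p = 0.0195, 0.0404 and 0.00801), SQSTM1 not without 0 or 240 min (adjusted p = 0.0627 and 0.182) nor with UMI counts (-0.29, adjusted p = 0.0961). Results of MAFF, NFE2L3, KEAP1 and RBX1 under other settings are not given here, so their calls may be no more stable.

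Of 26 other NRF2 targets tested, 14 bent downward, against 13.7% of all genes, and 0 upward, against 17.5% (edgeR; 0 at an unadjusted p under 0.05 and 0 with DESeq2), with a median bend of -0.59, against 0.01 over all genes. PRDX1, a peroxiredoxin gene, stood at 320 CPM at 240 min and 758 CPM at 720 min, against 987 CPM at 0 min (bend -1.46 ± 0.23, edgeR adjusted p = 0.00161). AKR1C3, an aldo-keto reductase gene with near-identical relatives, bent by -1.69 ± 0.26 (edgeR adjusted p = 0.0013), and EPHX1, an epoxide hydrolase gene, by -0.88 ± 0.14 (edgeR adjusted p = 0.00165). A trend was called upward for 4, against 3.9% of all genes. These were GCLM, SLC7A11, SLC48A1 and TRIM16 (1.45, 0.89, 1.33 and 1.26, edgeR adjusted p = 0.0214, 0.017, 0.00693 and 0.0168). A trend was called downward for 0, against 2.96% of all genes (1 at an unadjusted p under 0.05 and 0 with DESeq2). All 4 upward calls were lost without the 600 min library (adjusted p 0.0644 to 0.121). Those of GCLM, SLC7A11 and TRIM16 were also lost without 120 min (adjusted p 0.051 to 0.0648), those of GCLM and SLC7A11 without 60 min (adjusted p = 0.0812 and 0.0746) and that of TRIM16 without 720 min (adjusted p = 0.109). With log time GCLM and TRIM16 were not called (adjusted p = 0.0609 and 0.0515), nor was GCLM on the rank time scale (adjusted p = 0.0694), and with UMI counts the SLC7A11 trend was 0.35 (adjusted p = 0.101). With log time the bends of PRDX1 and EPHX1 were not called (adjusted p = 0.056 and 0.0614).

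Of 20 genes of thioredoxin and peroxide removal tested, some of them also on the list of NRF2 targets, 12 bent downward, against 13.7% of all genes, and 1 upward, against 17.5% (edgeR; 12 and 0 with DESeq2), with a median log2 ratio of -0.59 for 240 over 0 min and -0.13 for 720 over 0 min. GPX4, which reduces lipid peroxides, stood at 140 CPM at 240 min and 224 CPM at 720 min, against 294 CPM at 0 min (bend -1.10 ± 0.18, edgeR adjusted p = 0.00152). GPX1 bent by -0.68 ± 0.15 (edgeR adjusted p = 0.00648) and PRDX5 by -1.43 ± 0.30 (edgeR adjusted p = 0.00811). TXNRD2, the mitochondrial thioredoxin reductase gene, rose by 1.05 (edgeR adjusted p = 0.0498). That call was lost without any 1 of the 0, 60, 120, 600 and 720 min libraries. It was also lost with UMI or read counts, no filter on low counts, or the log or rank time scale (adjusted p 0.0511 to 0.218 over all these). TXNRD2 has no value at 480 min, and without that library its trend stayed at 1.05, with an edgeR adjusted p of 0.0565. Catalase, CAT, fell by 0.98 on the log2 scale (edgeR adjusted p = 0.0379, lost without 60, 120, 600 or 720 min, where the adjusted p was 0.103 to 0.182, and on the log and rank time scales, where it was 0.116 and 0.0566).

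Of 16 other genes of NADPH supply tested, 6 bent downward and 3 upward, against 13.7% and 17.5% of all genes, and 4 rose and 0 fell, against 3.9% and 2.96% (edgeR; 1 fell at an unadjusted p under 0.05 and 0 with DESeq2). Downward bends were called, among others, for PGLS, TALDO1 and TKT of the pentose phosphate pathway (-0.61, -0.90 and -0.95, edgeR adjusted p = 0.0312, 0.00245 and 0.00457) and for the isocitrate dehydrogenase genes IDH1 and IDH2 (-0.79 each, edgeR adjusted p = 0.0142 and 0.0329). Upward bends were called for RPE, also of the pentose phosphate pathway, and for MTHFD2 and ALDH1L2 (0.55, 0.64 and 1.14, edgeR adjusted p = 0.0299, 0.00334 and 0.00365). Results of PGLS, TALDO1, TKT, IDH1, IDH2 and RPE under other settings are not given here. The MTHFD2 and ALDH1L2 bends turned downward with log time (-0.11 and -0.42, adjusted p = 0.598 and 0.315) and were not called on the rank time scale (adjusted p = 0.174 and 0.296). The 4 that rose encode enzymes of folate metabolism. Not every gene on this list encodes an enzyme that makes NADPH itself, so the counts describe the list and not NADPH supply. ALDH1L2 rose by 3.59 ± 0.45, MTHFD2 by 1.78 ± 0.25 and MTHFD1L by 1.28 ± 0.19 (edgeR adjusted p = 0.00376, 0.00531 and 0.00679), the last not without 600 min (adjusted p = 0.0545). MTHFD2L rose by 1.87 (edgeR adjusted p = 0.0429), a call lost without any 1 of the 60, 120, 480, 600 and 720 min libraries and on the log and rank time scales (adjusted p 0.0749 to 0.152).

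The median log2 ratio of 240 over 0 min was 0.05 for genes of iron and haem handling. Of 18 tested, 5 bent upward and 2 downward, against 17.5% and 13.7% of all genes, and 1 fell and 0 rose, against 2.96% and 3.9% (edgeR; 3 rose at an unadjusted p under 0.05 and 1 with DESeq2). FBXL5, which marks iron regulatory protein for degradation, bent upward by 0.98 ± 0.18 (edgeR adjusted p = 0.00247), and ACO1, which encodes an iron regulatory protein, by 0.83 ± 0.20 (edgeR adjusted p = 0.0103, lost without 720 min and on the log time scale, at adjusted p of 0.118 and 0.203). TFRC, the transferrin receptor gene through which cells take up iron, fell by 0.95 on the log2 scale (edgeR adjusted p = 0.0259), to 161 CPM at 720 min, against 331 CPM at 0 min. The TFRC call was lost without 60, 120, 600 or 720 min (-0.67 to -1.15, adjusted p 0.0662 to 0.181) and on the log time scale (adjusted p = 0.0832). BLVRB, which encodes biliverdin reductase B, bent downward by -0.69 ± 0.16 (edgeR adjusted p = 0.00801), stood at 116 CPM at 240 min and 265 CPM at 720 min, against 174 CPM at 0 min, and lost its call without 0 or 240 min (adjusted p 0.0536 to 0.0539). The bend of BLVRA, which encodes biliverdin reductase A, was -0.30 and not called (edgeR adjusted p = 0.17). The ferroportin gene SLC40A1 had at most 9 transcripts in any library and was not tested.

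**Figure D4:**
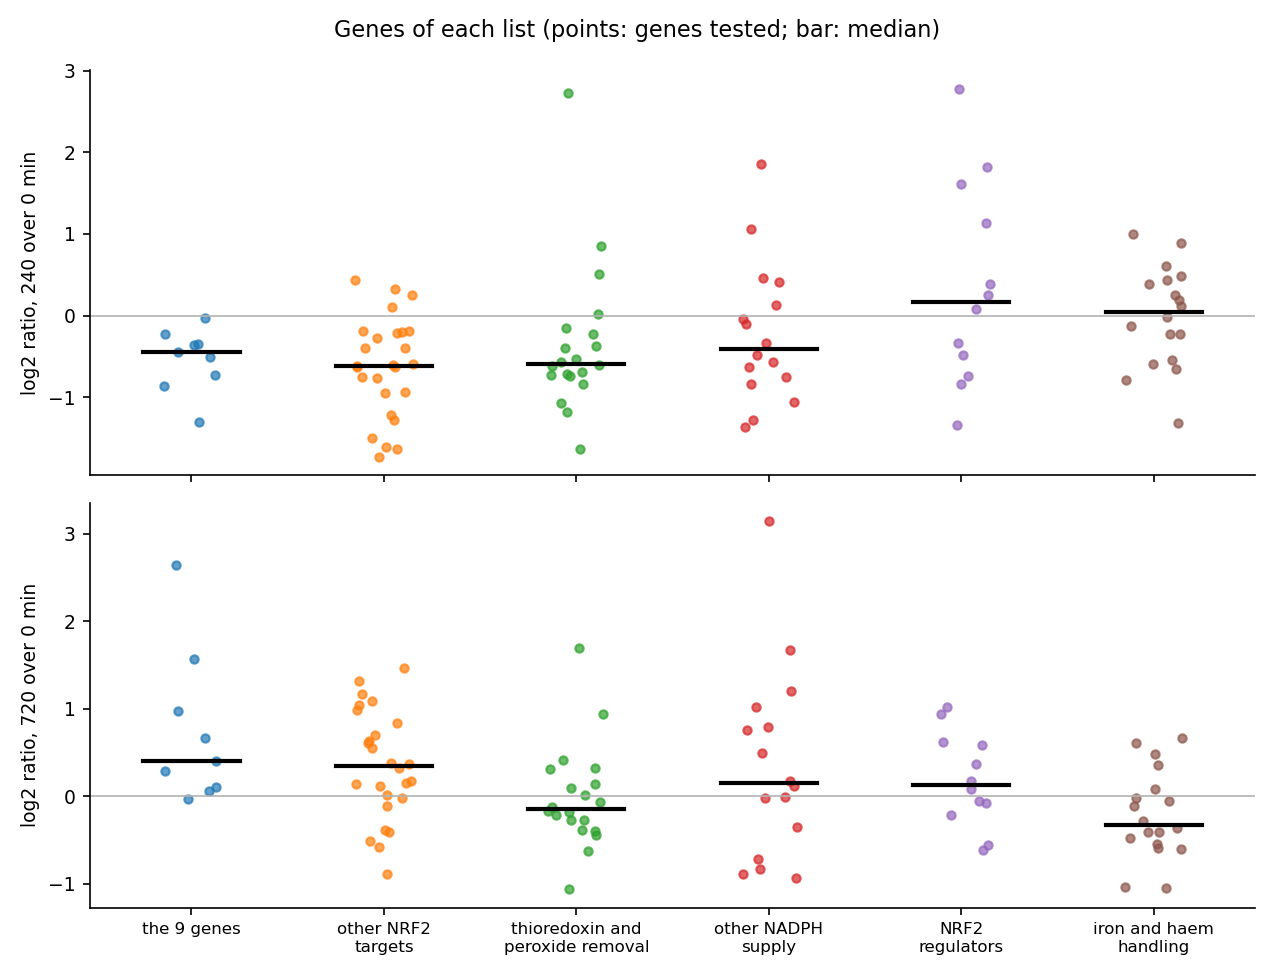
Log2 ratio of CPM for 240 over 0 min (top) and 720 over 0 min (bottom) for the 9 genes and the tested genes of 5 lists, each point a gene and each bar a median over all tested genes shown. At 240 min the 9 genes lie below 0, as do most other NRF2 targets and peroxide-removing genes, while regulators and iron genes lie on both sides.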

How the data were processed

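Libraries were an adaptation of CEL-Seq2 per the labels' protocols. The authors deposited expected counts of reads, UMIs and transcripts per gene (values that need not be whole), each table with 96 barcode columns. The column of barcode 4, the primer named in the labels, was used, and the 95 others in each table were not. The submitters' processing notes name BWA and hg19; the sources used here do not give versions, annotation or counter. Transcript counts were rounded, spike-in rows were left out, and genes past the end of the 480 min table were treated as missing there. The test was the robust quasi-likelihood F test of edgeR 4.0.16 (R 4.3.3), on genes that reached 10 counts in 3 or more libraries. TMM factors came from the 6 complete libraries, with the 480 min library placed on their scale through its listed genes. Those genes were fitted on 7 libraries, later genes on 6, and p-values were adjusted together at a threshold of 0.05. Ratios of 2 libraries cover genes with at least 50 counts in either, with exact binomial (Clopper-Pearson) 95% intervals for counting error only. UMI counts, read counts, RLE size factors, other count filters, DESeq2 1.42.0, log and rank time scales and leaving out each library were tried. The scripts were tested on simulated data. The 9 genes, the lists and tests were chosen with earlier results of these data known. From each list at most 4 called genes of smallest p were to be named, with the 5 genes most like the 9 and like HMOX1; others named where a count is small were chosen after their values were seen, as were the chain ratio and the collision interval. One gene that the rule would name is not reported here.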

Additional observations from a re-analysis of the deposited data

How the results depend on the processing

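The number of the 9 genes with a trend was 2, and became 1 with no filter on low counts, 1 with at least 50 counts in 3 libraries, 0 on the log time scale, 0 on the rank time scale and 0 on the 6 complete libraries; without 1 library it was 0 to 3. It was 2 with UMI or read counts or RLE size factors and 3 with DESeq2. The number with a bend was 5, and became 2 on the log time scale, OSGIN1, which was kept, and SRXN1, which was gained, while NQO1, FTL, FTH1 and PGD were lost; without 1 library it was 2 to 7. The low at 240 min past 1.5-fold was seen in 3 genes, in 5 with read counts and in 1 at 2-fold, and the high at 720 min in 4, or 2 at 2-fold. Shares of all genes at 2-fold, and of trend or bend calls under the other settings, are not given here. A changed count of the 9 genes therefore cannot be told from a changed share of all genes. No call among the 9 genes changed sign. On the log time scale the called upward bends of ALDH1L2 and MTHFD2 became -0.42 and -0.11, uncalled. Signs also changed in uncalled values of the 9 genes: the FTH1 trend with UMI counts (-0.043), the FTL trend on 6 complete libraries (0.0027) and without 1 library (-0.46 to 0.12), the NQO1 trend without 1 library (-0.044 to 0.20), the TXNRD1 bend without 1 library (-0.53 to 0.26), and the ME1 bend on the log time scale (-0.12), on 6 complete libraries (-0.017) and without 1 library (-0.19 to 0.43). With UMI counts, which saturate, the bends were -0.33 for FTL, -0.28 for FTH1 (adjusted p = 0.0755) and -0.22 for NQO1 (adjusted p = 0.215). The cause of each change was not tested, beyond fewer libraries or another time axis. No paired analysis was possible because each time has 1 library.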
